A study of Mus musculus with 6 samples.

Results

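The 10 genes described here, Ank3, Sptbn4, Cntn1, Cntn2, Cntnap1, Cntnap2, Nfasc, Nrcam, Epb41l3 and Gldn, encode scaffold and adhesion proteins of the node of Ranvier and of its flanking domains. They were selected by name from a table of 54532 genes. The rule uses no measured value, but earlier results of these data were known when they were chosen. RNA of the sciatic nerve at postnatal day 3 (P3) was sequenced in 3 control mice (WT) and 3 Dok6 mutants (Dok6 KO), with 1 library per mouse. The mice were kept on a C57BL/6 background. The mutant allele lacks exon 3 of Dok6 in the whole body, because the floxed allele was recombined by EIIA-Cre, which acts in the fertilized egg. DOK6 is an adaptor protein that binds neurotrophin receptors, and the study compared the transcriptomes at this stage, when Schwann cells sort axons, to look for pathways that act downstream of it. A figure legend of the study calls the controls littermates, without saying which mice shared a litter. All 10 genes passed the filter on low counts, which left 17099 genes, and each was counted in all 6 libraries.

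The node of Ranvier is the gap between adjacent myelin segments where voltage-gated sodium channels are held in the axon membrane. Ankyrin G (Ank3) and beta-IV spectrin (Sptbn4) form the scaffold below the membrane. Gliomedin (Gldn), which Schwann cells deposit, binds the axonal adhesion molecules neurofascin (Nfasc) and NrCAM (Nrcam) from outside and gathers them at the node. Beside the node, contactin 1 (Cntn1) and Caspr (Cntnap1) of the axon join glial neurofascin in the paranodal junction. Further out, contactin 2 (Cntn2) and Caspr2 (Cntnap2), held by protein 4.1B (Epb41l3), keep potassium channels in the juxtaparanode. By where their proteins are known to sit, Ank3, Sptbn4, Cntn1, Cntnap1, Cntnap2 and Epb41l3 were taken as axonal, Gldn as glial, and Nfasc, Nrcam and Cntn2 as both. The counts are per gene, so the axonal and the glial isoform of neurofascin were not separated.

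Of the members, the one called and the one with the largest estimated change are shown with the 250 bases before their most upstream RefSeq start (GRCm38.p6), taken here as promoter sequence. The Gldn window is chr9:54286236-54286485 on the plus strand and the Cntnap2 window is chr6:45059811-45060060 on the plus strand. The Cntnap2 window lies inside the gene as GENCODE M21 annotates it, since that annotation starts at 45059357, upstream of the RefSeq start. Bases would stand in capitals where a motif was found.
Gldn: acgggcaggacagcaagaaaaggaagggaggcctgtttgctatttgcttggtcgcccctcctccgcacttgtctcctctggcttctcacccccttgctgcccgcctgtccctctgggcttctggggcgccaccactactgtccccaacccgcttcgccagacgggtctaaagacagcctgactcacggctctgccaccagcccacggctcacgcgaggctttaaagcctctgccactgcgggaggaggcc
Cntnap2: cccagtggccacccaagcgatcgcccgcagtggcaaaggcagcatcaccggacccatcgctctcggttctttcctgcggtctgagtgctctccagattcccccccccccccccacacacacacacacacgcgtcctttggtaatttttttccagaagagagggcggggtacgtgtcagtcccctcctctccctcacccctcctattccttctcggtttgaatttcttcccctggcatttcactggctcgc
The windows were searched on both strands for the EGR motif GCGNGGGCG, bound by the myelin regulator EGR2, and for the SOX core ACAANG, bound by SOX10. Neither printed window held a match, while the window at the other RefSeq start of Cntnap2 held the SOX core. The absence of a match says only that these letters are not in these bases. The EGR motif is in 4.7% of the 32851 promoter windows of the same length in the RefSeq table and the SOX core is in 36.3%. The table held 8 of the 10 members with 17 windows, of which 3, all of Sptbn4, held the EGR motif and 6 held the SOX core. Ank3 and Cntnap1 were not in it.

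The libraries held from 17699904 to 18678170 counts, and 3 counts, the lowest level taken as detectable, correspond to 0.156 to 0.172 CPM (counts scaled to library size, with TMM factors here and below). Dok6 was lower in every mutant (5.78 to 7.26 CPM) than in every control mouse (11.9 to 17.8 CPM), with a log2 fold change of -1.23 (adjusted p = 0.0118, standard error 0.20). Dok6 counts include reads outside the deleted exon. The defining markers did not match a pure peripheral nerve. Scn10a, a sodium channel of pain-sensing DRG neurons, was at 1.2 to 3.1 CPM in controls and at 46.0 to 167 CPM in mutants. Mog, a central myelin protein, was at 4.3 to 12.5 CPM over all libraries. Markers of spinal cord neurons were present in every library, such as Slc32a1, the vesicular transporter of GABA and glycine, at 125 to 181 CPM. The summed level of 12 Schwann cell markers was 158 to 237 CPM in controls and 469 to 3986 CPM in mutants, with 7 of 11 tested genes higher. Of 10 spinal neuron markers, summing to 971 to 1071 CPM in controls and 747 to 871 CPM in mutants, 2 were lower. Of 10 markers of dorsal root ganglion (DRG) neurons, summing to 220 to 278 CPM in controls and 420 to 1045 CPM in mutants, 9 were higher. Of 10 skeletal muscle markers, 8 of the 9 tested were higher, and their sum was 18.7 to 27.2 CPM in controls and 120 to 643 CPM in mutants. The 7 astrocyte markers summed to 2075 to 3567 CPM over the 6 libraries, the 7 oligodendrocyte markers to 201 to 562 CPM and the 10 general neuron markers to 6760 to 8781 CPM, and none of these genes was called. In such bulk samples, fewer cells of a type and less RNA per cell cannot be told apart, and the part of this difference in makeup in the results below was not tested.

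In the Dok6 mutant libraries, 1 member fell and none was called higher. Calls required an adjusted p below 0.05, here and throughout from the quasi-likelihood test of edgeR. Benjamini-Hochberg adjustment covered the 17099 genes that passed the filter. The member that fell was Cntnap2. Among all 17099 genes tested, 6.01% were lower and 8.62% were higher by the same rule, so that 1 of 10 is near the background. The groups did not overlap for 1 member higher in every mutant mouse, Cntnap1, against 19.6% of all genes, and for 2 members lower in every mutant mouse, Cntnap2 and Nrcam, against 18.7% of all genes. No member was past an absolute log2 fold change of 1 or 2 with an adjusted p-value under 0.05, against 4.01% and 1.19% of all genes. The median log2 fold change was 0.10 for the 6 axonal members, of which 4 were above 0, and 0.40 for the 3 members of both sides. It was 0.01 over all genes tested. The only glial member, Gldn, had the largest estimate, at 2.19, and the widest interval.

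**Figure D1:**
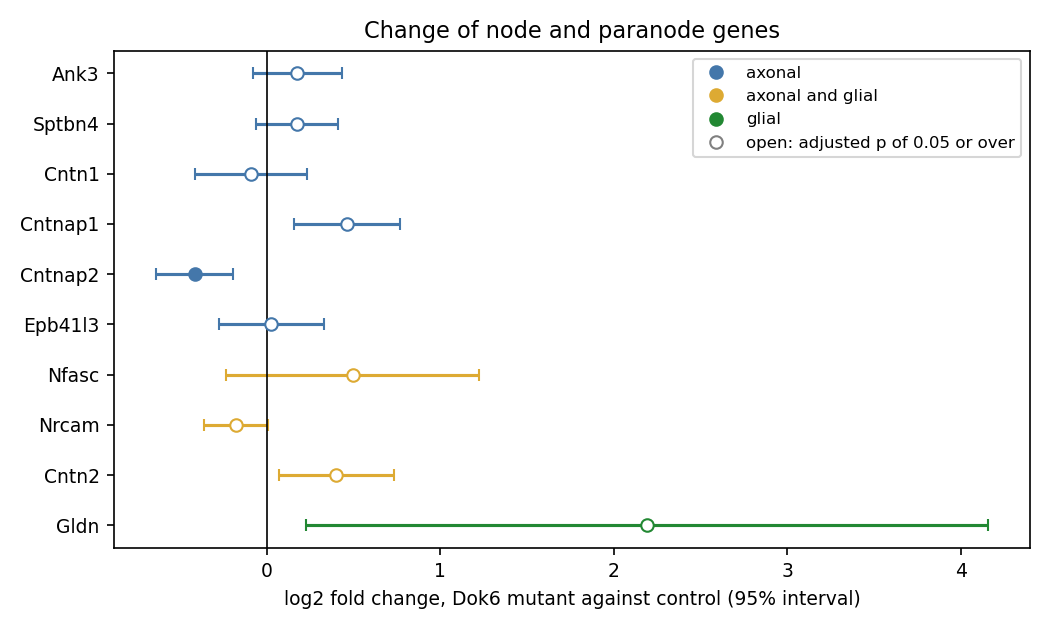
Log2 fold change of each gene in Dok6 mutant against control nerves (x axis), with the 95% interval from edgeR's quasi-likelihood fit of 3 mice per group. Colours give the class of the protein, and the filled point, Cntnap2 at -0.42, is the one with an adjusted p-value under 0.05. The interval of Gldn runs from 0.22 to 4.16.

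Per base of gene length, Cntn1 had the highest level of the members in control libraries, at 66.0 RPKM (CPM divided by the gene length in kilobases from the deposited table), and Gldn the lowest, at 0.373 RPKM. The other 8 members lay between 9.88 RPKM for Sptbn4 and 23.7 RPKM for Epb41l3. In descending order these were Epb41l3, Cntnap2, Nrcam, Nfasc, Cntnap1, Ank3, Cntn2 and Sptbn4. The control ranges overlapped between all neighbours in this order except Cntnap2 and Nrcam. The ranges of Cntn1 and Gldn were separate from those of their neighbours in controls and in mutants. In the mutant libraries Cntn1 ranged from 52.8 to 66.8 RPKM, Gldn from 0.375 to 4.25 RPKM and Nfasc from 14.3 to 33.4 RPKM.

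Neither gene of the nodal scaffold passed the test. Ank3, which anchors sodium channels and Nfasc, lies on chromosome 10 of GRCm38 from 69398773 to 70027438 and has 47 annotated transcripts. It was at 494, 400 and 461 CPM in control mice 1, 2 and 3 and at 461, 503 and 566 CPM in mutant mice 1, 2 and 3. The groups overlapped, with a log2 fold change of 0.17 (adjusted p = 0.311, standard error 0.11). Sptbn4, which links ankyrin G to actin, was at 106, 86.6 and 90.6 CPM in controls and at 95.9, 109 and 115 CPM in mutants. Its log2 fold change was also 0.17 (adjusted p = 0.28, standard error 0.10), with overlapping groups. Within each library the ratio of both genes was nearly constant. The log2 ratio of Ank3 to Sptbn4 RPKM was 0.39 ± 0.08 (SD) in controls and 0.39 ± 0.05 in mutants. As a share of the summed general neuron markers, a sum that was itself 7928 to 8781 CPM in controls and 6760 to 8063 CPM in mutants, 4 of the 10 members were higher in every mutant, against 26.8% of all genes tested on this scale. These were Ank3, at 5.05% to 6.2% in controls and 6.69% to 7.01% in mutants, Sptbn4, at 1.03% to 1.33% and 1.42% to 1.45%, Cntnap1 and Cntn2. With libraries scaled to these markers, which raised the median log2 fold change of all genes to 0.16, Ank3 and Sptbn4 still missed the threshold (adjusted p = 0.103 and 0.117). Exons of Sptbn4 share 377 bases with those of 2 other annotated genes, so part of its count is uncertain.

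**Figure D2:**
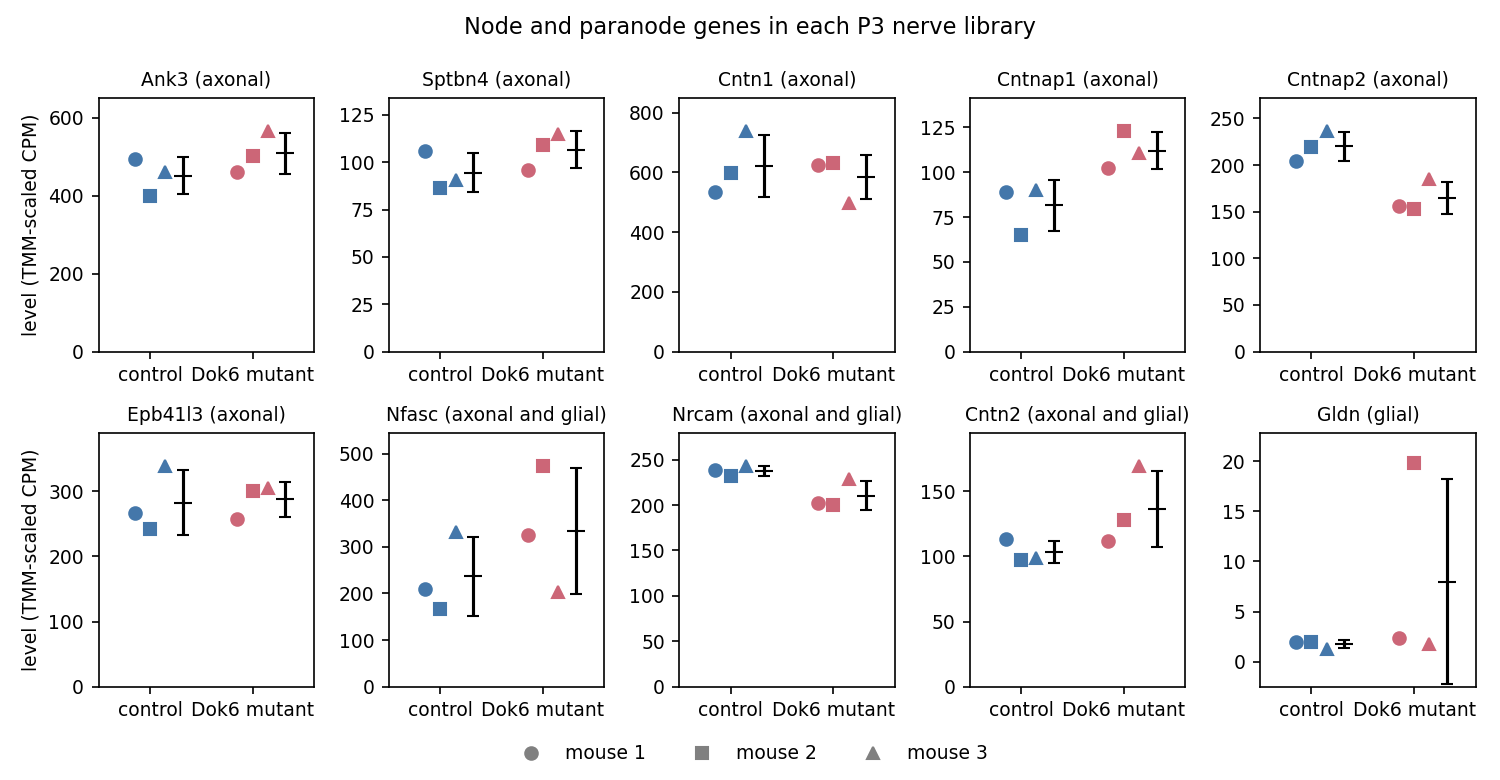
Level of each gene (y axis, TMM-scaled CPM) in the 3 control (blue) and 3 Dok6 mutant (red) libraries, with symbols for mouse 1, 2 and 3 and the mean ± SD in black. Cntnap2 and Nrcam are lower and Cntnap1 is higher in every mutant mouse, while the high mean of Gldn comes from mutant mouse 2 at 19.8 CPM.

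Among the adhesion molecules of the node, Nfasc varied most between mice of the same genotype apart from Gldn. Nfasc (chromosome 1 of GRCm38, 132564690 to 132741797) was at 210, 167 and 332 CPM in control mice 1, 2 and 3 and at 325, 472 and 202 CPM in mutant mice 1, 2 and 3. Control mouse 3 and mutant mice 1 and 2 were high and the other 3 libraries were low, so the groups overlapped. The log2 fold change was 0.50 (adjusted p = 0.312, standard error 0.32), and it ranged from 0.16 without mutant mouse 2 to 0.83 without control mouse 3. It was 0.30 without control mouse 2 and 0.75 without mutant mouse 3. Mag, a glial receptor of the myelin membrane, was high in the same libraries, at 99.0, 59.9 and 181 CPM in control mouse 3 and mutant mice 1 and 2, against 6.89 to 11.6 CPM in the others. Mobp, a protein of central myelin, was at 93.4, 57.6 and 155 CPM in the same 3 libraries and at 1.91 to 4.76 CPM in the others. Mog did not follow this split, at 9.43 CPM in mutant mouse 3 and 6.38 CPM in mutant mouse 1. Of the astrocyte markers, Aqp4, a water channel, was also high in these libraries, at 439, 508 and 532 CPM. It was at 224 to 270 CPM in the others. Slc1a2, a glutamate transporter, was at 646, 822 and 883 CPM against 439 to 525 CPM. Gja1 and Fgfr3 were also higher in these libraries, by little in control mouse 3. Slc1a3, Aldh1l1 and Aldoc did not follow the split, and control mouse 3 was their lowest control, at 399, 121 and 783 CPM. These genes were set beside Nfasc after their values were seen. Nfasc itself differed 2.83-fold between the highest and the lowest library. As a share of the summed oligodendrocyte markers it differed 1.3-fold, from 76.8% to 100.1%, and as a share of the summed general neuron markers 2.98-fold. The part of any glial cell type in the level of Nfasc was not tested.

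Nrcam (chromosome 12, 44328885 to 44601964) was at 239, 232 and 243 CPM in controls and at 202, 200.5 and 229 CPM in mutants. All 3 mutants were below all 3 controls, but the difference was small, with a log2 fold change of -0.18 (adjusted p = 0.162, standard error 0.08). Relative to the summed general neuron markers, Nrcam was at 2.76% to 3.0% in controls and at 2.67% to 2.99% in mutants, and the groups overlapped.

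Gldn, the glial organizer of the node (chromosome 9, 54286486 to 54341786), was scarce in 5 of the 6 libraries. It had 34, 35 and 22 counts in the control libraries and 46, 363 and 33 counts in those of mutant mice 1, 2 and 3, or 1.95, 2.01 and 1.26 CPM against 2.39, 19.8 and 1.75 CPM. Mutant mouse 2 was high and the other mutants were within or near the control range. The log2 fold change of 2.19 (adjusted p = 0.115, standard error 0.86) thus rested on that mouse, and without it the value was 0.25 (adjusted p = 0.691). The adjusted p was under 0.05 in 2 of 14 alternative analyses, with no filter on low counts (0.018, log2 fold change 2.19) and without mutant mouse 3 (0.0443, log2 fold change 2.67). The summed Schwann cell markers were highest in the same library, at 3986 CPM, although Ngfr and Foxd3 of this list were highest in mutant mouse 3. Prx, a protein that supports peripheral myelin, was at 330 CPM in mutant mouse 2. Prx was at 3.83 to 28.2 CPM in the other 5 libraries. As a share of the summed Schwann cell markers, Gldn was at 0.822%, 1.27% and 0.536% in controls and at 0.47%, 0.497% and 0.373% in mutants. On this scale mutant mouse 2 did not stand apart, and every mutant was below every control. This sum was itself higher in every mutant, and all 10 members set against it were lower in every mutant than in every control, as were 85.4% of all genes tested. Unlike Gldn, Nfasc, Nrcam and Cntn2 were far lower in mutant mouse 2 than in the other mutants on this scale, with Nfasc at 64.0%, 11.8% and 43.1% of the sum in mutant mice 1, 2 and 3, Nrcam at 39.8%, 5.03% and 48.8%, and Cntn2 at 22.1%, 3.21% and 36.1%.

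**Figure D3:**
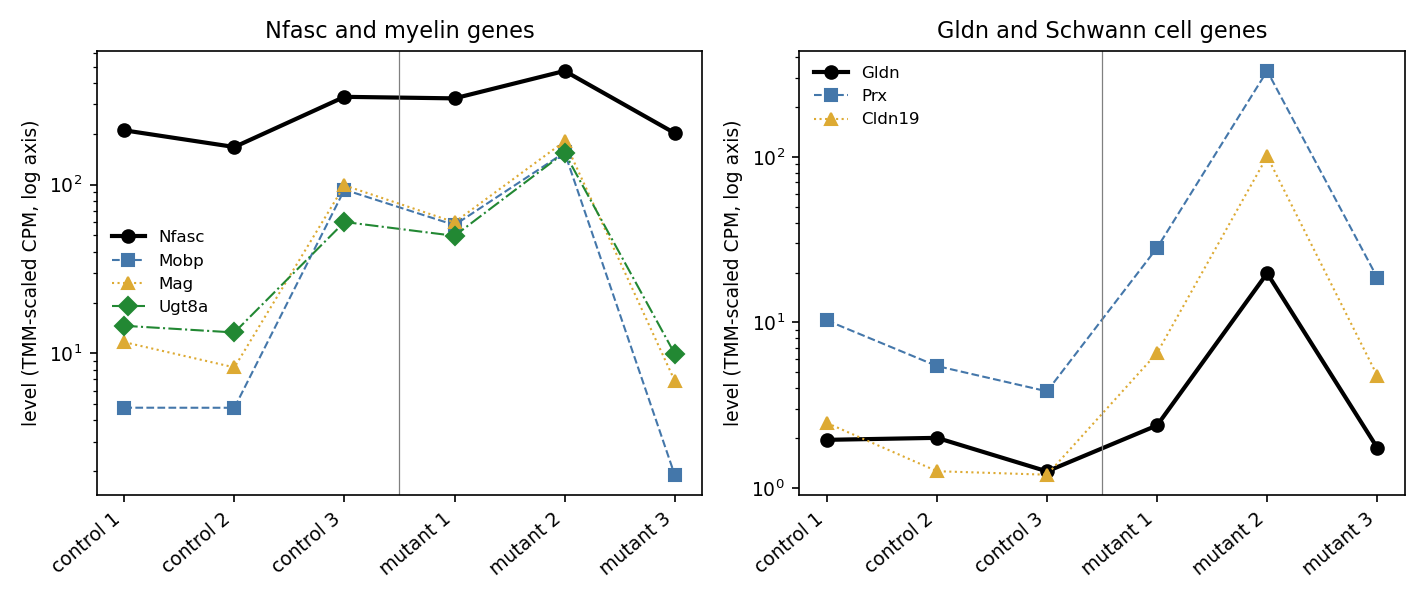
Levels (y axis, TMM-scaled CPM on a log axis) in the 6 libraries for Nfasc with the myelin genes Mobp, Mag and Ugt8a (left) and Gldn with the Schwann cell genes Prx and Cldn19 (right). Lines join the values of a gene and have no order in time. Nfasc is highest in control mouse 3 and mutant mice 1 and 2, at 325 to 472 CPM, and Gldn in mutant mouse 2, at 19.8 CPM.

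Neither gene of the axonal pair of the paranode was called, and their estimates differed in sign. Cntn1 (chromosome 15, 92051165 to 92341967) was at 534, 597 and 737 CPM in controls and at 625, 630 and 498 CPM in mutants. The groups overlapped, and the log2 fold change was -0.09 (adjusted p = 0.685, standard error 0.14), which turned to 0.07 with scaling to general neuron markers. Cntnap1, which needs contactin 1 to reach the cell surface, lies on chromosome 11 from 101170523 to 101190724. It was at 89.2, 64.9 and 90.3 CPM in controls and at 103, 123 and 111 CPM in mutants. Every mutant was above every control, and the log2 fold change was 0.46 (standard error 0.13), with an adjusted p of 0.0524, just over the threshold. The adjusted p was under 0.05 in 5 of 14 alternative analyses and ranged from 0.0148 to 0.147. As a share of the summed general neuron markers, a scale on which 26.8% of all genes were higher in every mutant, Cntnap1 was at 0.819% to 1.12% in controls and at 1.37% to 1.64% in mutants. Exons of Cntnap1 share 233 bases with Plekhh3 on the opposite strand, and whether strand was used in counting is not given in the sources used here.

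Among the members whose proteins lie at the juxtaparanode, Cntnap2 RNA was lower in the mutants. Cntnap2, which clusters potassium channels together with contactin 2, spans 2245 kb of chromosome 6 from 45059357 to 47304213. It was at 205, 219 and 236 CPM in controls and at 156, 153 and 185 CPM in mutants, or 220.0 ± 15.8 against 165 ± 17.6 CPM (SD, n = 3 mice). All mutants were below all controls, and the log2 fold change was -0.42 (adjusted p = 0.0282, standard error 0.10), a level 0.749 times that of controls. The estimate stayed between -0.51 and -0.27 in 14 alternative analyses, but the adjusted p rose above 0.05 in 6 of them. These included leaving out control mouse 2 (adjusted p = 0.109), control mouse 3 (adjusted p = 0.0696), mutant mouse 1 (adjusted p = 0.0972) or mutant mouse 2 (adjusted p = 0.0974). Spinal neuron markers had a median log2 fold change of -0.41 in the same fit, with 2 of 10 called lower. Their part in the change of Cntnap2 was not tested. With libraries scaled to equal general neuron markers, the value for Cntnap2 was -0.27 (adjusted p = 0.119). As a share of those markers, Cntnap2 was still lower in every mutant, at 2.04% to 2.31% against 2.57% to 2.76% in controls, as were 5.54% of all genes on this scale.

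Its partner Cntn2 (chromosome 1, 132509427 to 132543256) was at 113, 97.5 and 99.2 CPM in controls and at 112, 128 and 169 CPM in mutants. Mutant mouse 3 was highest and mutant mouse 1 was within the control range, with a log2 fold change of 0.40 (adjusted p = 0.0933, standard error 0.14). Without mutant mouse 3 the value was 0.22 (adjusted p = 0.168). The adjusted p was under 0.05 in 2 of 14 alternative analyses, with no filter on low counts (0.0402) and with scaling to general neuron markers (0.0228, log2 fold change 0.53). As a share of those markers, Cntn2 was at 1.13% to 1.42% in controls and at 1.66% to 2.1% in mutants, and the groups were apart as for 26.8% of all genes, while in CPM they overlapped. Epb41l3 (chromosome 17, 69075683 to 69289989), the link of the Caspr proteins to the axonal skeleton, was at 266, 243 and 338 CPM in controls and at 257, 301 and 305 CPM in mutants. The groups overlapped, with a difference near 0 on the log2 scale (log2 fold change 0.03, adjusted p = 0.911, standard error 0.13).

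Ratios within a library do not depend on scaling. For 4 pairs of genes whose proteins act together, chosen after the counts were seen, the log2 ratio of RPKM was compared between genotypes. Cntnap2 to Cntn2 was at 0.71, 1.03 and 1.11 in controls and at 0.34, 0.12 and -0.01 in mutants. The groups did not overlap, and the mean ratio was 1.93 in controls and 1.11 in mutants. Cntnap2 alone was also lower in every mutant, as were 18.7% of all genes. The share of all gene pairs that do not overlap was not determined. The exact two-sided permutation p was 0.1, the smallest that 3 mice against 3 allow, and 0.267 after adjustment over the 4 pairs. Cntnap1 to Cntn1 was at -2.25 ± 0.32 (SD) in controls and -1.70 ± 0.22 in mutants, and the groups overlapped (exact permutation p = 0.2). Nfasc to Nrcam was at -0.15 ± 0.47 in controls and 0.50 ± 0.71 in mutants, also with overlap (exact permutation p = 0.2). Ank3 to Sptbn4, given above, differed by 0.00 (exact permutation p = 1.0).

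**Figure D4:**
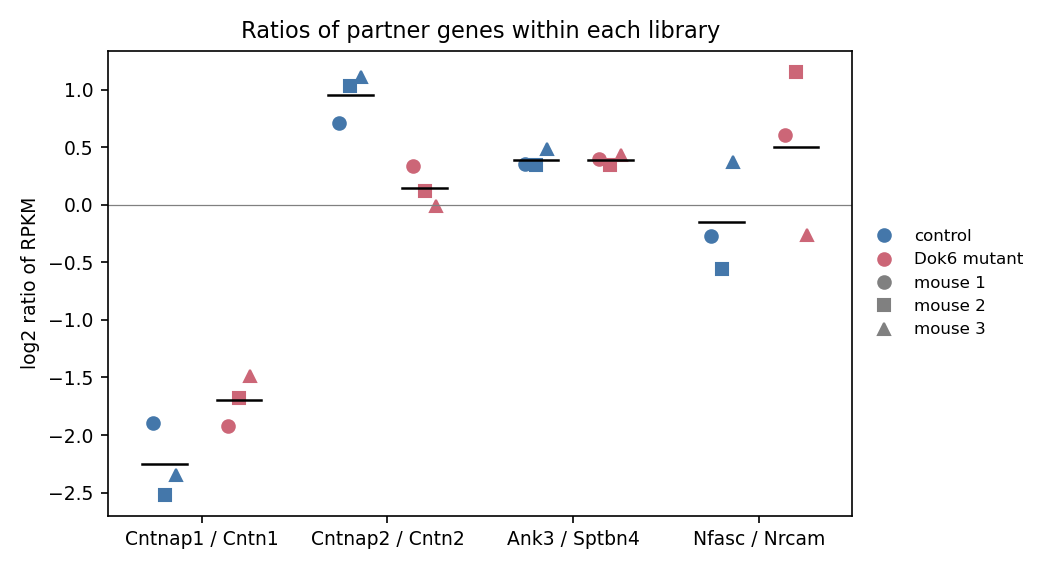
Log2 ratio of the RPKM of partner genes (y axis) in each library, for 3 control (blue) and 3 Dok6 mutant (red) mice, with lines at the means. The ratio of Cntnap2 to Cntn2 is lower in every mutant mouse, while Ank3 to Sptbn4 lies between 0.34 and 0.48 in all 6 libraries.

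Of 79 other genes of the node and the axon-glia contact, in 8 lists, 6 were higher and 1 was lower in the mutants, beside 8.62% and 6.01% of all genes. Their median log2 fold change was 0.10. Without control mouse 2 edgeR called none of the 79, and it called 56 genes higher and 12 lower over all genes, whereas DESeq2 with all 6 libraries called 11 of the 79 higher and 5 lower. Among 13 nodal channel genes, 2 rose. Scn9a, a sodium channel of sensory and sympathetic neurons, was at 27.7 to 28.5 CPM in controls and at 43.3, 100.1 and 88.9 CPM in mutant mice 1, 2 and 3 (log2 fold change 1.46, adjusted p = 0.0153, standard error 0.27). Scn2b, an auxiliary sodium channel subunit, was at 12.4 to 18.0 CPM in controls and at 29.6 to 42.1 CPM in mutants (log2 fold change 1.32, adjusted p = 0.00761, standard error 0.18). DRG neuron markers, which sum to 220 to 278 CPM in controls and 420 to 1045 CPM in mutants, moved with both genes, and their part in these changes was not tested. Scn8a, the sodium channel of mature nodes, was at 136 to 155 CPM in controls and at 147 to 165 CPM in mutants (log2 fold change 0.11, adjusted p = 0.379). Scn3b, an auxiliary subunit among the highest of this list, had a log2 fold change of -0.25, which did not pass the threshold.

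None of the 12 genes of the juxtaparanodal complex was called, and their median log2 fold change was -0.03. Kcna1 and Kcna2, the potassium channels that Caspr2 holds there, had log2 fold changes of 0.47 (adjusted p = 0.209) and 0.42 (adjusted p = 0.112). Dlg4 and Dlg2, scaffold proteins of this domain, had log2 fold changes of -0.21 and -0.06. In the membrane skeleton, 1 of 9 genes rose, Ank1, another ankyrin, at 55.6 to 68.2 CPM in controls and 83.8 to 97.9 CPM in mutants (log2 fold change 0.50, adjusted p = 0.0214, standard error 0.10). The spectrins Sptan1 and Sptbn1, the highest of this list, had values of 0.05 and 0.13. None of the 11 contactin, Caspr and L1 family genes outside the member list was called, and their median was 0.03. Chl1 and L1cam, the highest of them, had log2 fold changes of 0.17 and 0.03.

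On the glial side, 2 of 10 perinodal genes rose. They were Msn, or moesin, at 55.0 to 76.3 CPM in controls and 87.9 to 120 CPM in mutants (log2 fold change 0.70, adjusted p = 0.0222, standard error 0.15), and Slc9a3r1, its partner EBP50, with a log2 fold change of 0.50 (adjusted p = 0.0458, standard error 0.14). Both proteins lie in the microvilli with which Schwann cells cover the node, and both genes are also active in other cell types. Ezr and Rdx, the relatives of moesin, had log2 fold changes of -0.23 and 0.07. Sdc3 and Dag1, a syndecan and dystroglycan with the highest levels of this list, had log2 fold changes of -0.23 and 0.17, neither past the threshold. Of 10 genes of the glial paranodal junction, Cldn19, a tight junction protein of Schwann cells, rose. It was at 1.2 to 2.47 CPM in controls and at 6.54, 101 and 4.77 CPM in mutant mice 1, 2 and 3 (log2 fold change 4.50, adjusted p = 0.0416, standard error 1.21). Tjp1, a junction scaffold, and Mag had the highest levels of this list, with log2 fold changes of -0.12 and 1.06, neither past the threshold. The median of the list was 1.40, and its sum was highest in mutant mouse 2, at 997 CPM against 215 to 367 CPM in the other libraries. Of the 4 internodal adhesion genes, Cadm2 fell, from 235 to 281 CPM in controls to 188 to 201 CPM in mutants (log2 fold change -0.45, adjusted p = 0.0195, standard error 0.09). Cadm3 and Cadm4, the nectin-like proteins of axon and Schwann cell with the highest levels of this list, had log2 fold changes of -0.19 and -0.25 and were not called. None of the 10 genes of the perinodal matrix was called, with a median of 0.15, and Ncan and Ptprz1, its highest genes, had values of 0.09 and 0.19.

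The genes whose profile over the 6 libraries was nearest to that of a member were sought among 15655 genes with a mean of at least 1 CPM, by the root-mean-square difference of centred log2 CPM. For Gldn these were S100a8, Mal, Arhgap19, Mlip and Gapdh, with differences from 0.329 to 0.455. Mal, a proteolipid of myelin, was at 135 CPM in mutant mouse 2 and at 7.32 to 17.6 CPM in the other libraries. The count of Gapdh is uncertain, since 90 other annotated genes hold stretches of 200 bases or longer with at least 95% identity to it. For Cntnap1 the nearest were Abraxas1, Cks2, Dph6, Ptprc and Tmem106a, with differences from 0.042 to 0.079. For Nfasc, a search added after its values were seen, the nearest were Slc44a1, Ptgdr, Itgam, Serpina3n and Rnf122, with differences from 0.079 to 0.114. Slc44a1, a choline transporter, was at 59.6, 63.2 and 93.4 CPM in control mouse 3 and mutant mice 1 and 2 and at 34.8 to 43.0 CPM in the other 3 libraries.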

How the data were processed

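The deposited values are counts, the whole numbers of reads that the authors assigned to each gene in the 6 libraries, without normalization, and a gene length in bases, which for the 10 members equals the exonic length in GENCODE M21 (GRCm38). The submitters' processing notes name the mm10 genome. The aligner, the counter and the use of strand are not given in the sources used here. The labels name the NEBNext Ultra kit, and the study's methods its Directional version. The test of the counts was edgeR 4.0.16 (R 4.3.3), with filterByExpr, TMM scaling, 1 quasi-likelihood fit over all genes and Benjamini-Hochberg adjustment. Standard errors were derived from the F statistic. A gene was called at an adjusted p-value under 0.05, and the absolute log2 fold change above 2 that the study also asked for was an alternative, as were DESeq2 1.42.0, limma 3.58.1 (voom), other scalings and filters, a replicate block and leaving out each mouse. Procedures were tested on simulated data. Intervals are at 95%.

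The members and gene lists were chosen with earlier results of these data known. Genes named from a list are the 3 with the largest called change and the 2 with the highest mean, and Mog, Slc32a1 and Scn10a as defining markers, and some genes that this rule names are not reported here. Scn8a, Kcna1, Kcna2, Ezr, Rdx, Mobp, Ugt8a, Aqp4, Gja1, Fgfr3, Slc1a3, Aldh1l1, Ngfr and Foxd3 were added after their values were seen. So were the shares of all genes not overlapping relative to marker sums. The 5 genes nearest in profile to Gldn and to Cntnap1 were also named. No libraries of 1 group agreed within sampling noise (chi-square per degree of freedom of at least 9.47), and floors cover counting error only. The study calls the controls littermates, but no source used here says which mice shared a litter, so litter could not enter the model.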

Additional observations from a re-analysis of the deposited data

How the results depend on the processing

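The direction of each member held under every other scaling, filter, test and the block, except for Cntn1, at 0.074 with scaling to general neuron markers. With 1 mouse left out, the log2 fold change of Cntn1 ranged from -0.188 to 0.052 (0.011 without mutant mouse 3) and that of Epb41l3 from -0.074 to 0.18 (-0.013 without control mouse 1, -0.007 without mutant mouse 2 and -0.018 without mutant mouse 3). Leaving out 1 mouse, 0 to 1 members were called higher and 0 to 1 lower, 56 to 1671 of all genes higher and 12 to 1233 lower, and 0 to 13 of the other node genes higher and 0 to 4 lower, with the fewest calls over all genes without control mouse 2.

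Scaling to general neuron markers called 2 members higher and 0 lower, 142 of all genes lower, and 15 other node genes higher and 0 lower. It made 93.3% of all calls higher, against 58.9% with TMM, and the median of the axonal members 0.25. Upper-quartile scaling, a minimum of 10 counts in every library and DESeq2 each called 1 member higher, and no filter called 3. No filter called 16 other node genes higher and 4 lower, and DESeq2 called 11 higher and 5 lower. Requiring also an absolute log2 fold change above 1 left 0 members lower, 612 of all genes higher and 74 lower, and 3 other node genes higher and 0 lower, and above 2 it left 0 members lower, 185 and 19 of all genes, and 1 and 0 other node genes. The causes were not tested, apart from these stricter rules calling fewer genes by construction.

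The study calls the controls littermates, but nothing ties a replicate number to a litter, and the deviations of same-numbered mice correlated at -0.01, -0.17 and -0.24. With the replicate number as a block, 0 members were called lower (Cntnap2 adjusted p = 0.0531, edgeR), 432 of all genes higher and 130 lower, and 2 other node genes higher and 0 lower. The log2 fold change of Gldn, which had 22 to 46 counts in 5 libraries, was 1.46 with the block and 1.32 with limma voom.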
